A study of Homo sapiens with 36 samples.

Results

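The comparison is between BxPC-3 cells given the compound TRAP1 and BxPC-3 cells given JQ1, each at 3 uM for 2 h. Its members are the 3 TRAP1 and 3 JQ1 libraries of the 2 h time point, 6 of the 36 libraries in all, and every gene that passed a filter on low counts, 14988 of the 29744 genes in the count table. BxPC-3 is an established line of human pancreatic adenocarcinoma cells, labelled wild type in all groups. The study treated these cells with TRAP1, with its control compounds TRAP-1-NegB, TRAP-1-NegP, MS78 or JQ1, all at 3 uM, or with the vehicle DMSO, and collected polyadenylated RNA after 2 or 4 h, with 3 libraries per compound and time. Here TRAP1 always means the compound and never the mitochondrial chaperone gene of that name, and the labels leave the suffixes NegB and NegP unexplained. Beside the comparison stand the 3 DMSO and 3 TRAP-1-NegP libraries of 2 h and the 6 TRAP1 and JQ1 libraries of 4 h. Cells were grown in multiwell plates and the labels do not say that the replicates were separate cultures, so p-values measure only the spread between these samples, which may be technical.

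JQ1 occupies the acetyl-lysine pockets of the BET bromodomain proteins and displaces them from chromatin, which lowers transcription of genes with heavily acetylated enhancers and raises a set of others, HEXIM1 and BRD2 among them. p53 is a transcription factor that halts the cell cycle and starts DNA repair or cell death by binding near target genes such as CDKN1A, MDM2 and GDF15. Comparing TRAP1 with JQ1 at the same dose and time asks which RNAs differ between cells given TRAP1 and cells given a BET inhibitor.

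Of 90 targets of p53 tested, 18 were higher and 1 was lower with TRAP1 than with JQ1 at 2 h, led by TP53INP1 (7.10-fold), CDKN1A (6.25-fold) and GDF15 (6.00-fold). Of 28 NF-kB and cytokine genes, 3 were higher, IL1B, IL1A and LIF, and 1 was lower. The 31 immediate early and AP-1 genes were divided, with 5 lower, EGR1 most of all (1.87-fold), and 3 higher, among them BTG2. Lists overlap, and LIF and BTG2 also count among the 18 higher p53 targets. Of 20 classical genes that BET inhibitors induce, 2 were called between the compounds, both lower with TRAP1. The share called over all genes tested was 1.99%, of which 1.10% were higher and 0.887% lower.

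Total estimated counts of the 6 libraries ran from 17948818 to 23673304, inside the range of 15288688 to 26608325 over all 36 libraries. No replicate pair among them agreed within counting noise, with chi-square values of 4.86 to 5.98 per degree of freedom between TRAP1 replicates and of 6.83 to 11.7 between JQ1 replicates. The upper values were those of JQ1 replicate 1, at 10.4 and 11.7 against the 6.83 of the other pair. Outside the 6, the 2 libraries furthest from their groups by this measure were MS78 2 h replicate 1, with 28.7 and 46.4 against 7.26, and TRAP1 4 h replicate 1, with 13.4 and 15.5 against 8.14. Smaller gaps of the same kind were seen for DMSO 4 h replicate 1 (8.99 and 11.7 against 5.50) and TRAP-1-NegP 4 h replicate 2 (10.1 and 11.1 against 6.07). In a principal component analysis of the 6 libraries, the first component (26.5% of the variance) set JQ1 replicate 2 apart and the next (22.2%) set JQ1 replicate 3 apart. Markers of ductal and epithelial cells were those of a pancreatic carcinoma line, with 27 of 30 above 10 TPM, a level scaled for transcript length and depth, and a summed level of 21550 to 22356 TPM with TRAP1 and 20625 to 21373 TPM with JQ1, with CFTR at 0. Acinar and endocrine markers were all under 1 TPM (12 of 12 in the table, 8 of them at 0, with INS, GCG and CPA1 among those at 0), and summed to 0.368 to 1.63 TPM with TRAP1 and 0.601 to 1.19 with JQ1. Mesenchymal markers summed to 83.9 to 93.7 TPM with TRAP1 and 66.5 to 79.6 with JQ1, nearly all of it VIM and SNAI2, with 9 of 14 under 1 TPM. Haematopoietic and endothelial markers summed to 28.6 to 34.8 TPM with TRAP1 and 28.6 to 32.3 with JQ1, mostly CD68, and PTPRC was at 0.

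Of the 14988 genes tested, 165 were higher (1.10%) and 133 lower (0.887%) with TRAP1 than with JQ1 at an adjusted p under 0.05 in edgeR's quasi-likelihood test, 298 in all (1.99%). The same fit called 4505 genes (30.1%) between TRAP1 and DMSO and 4314 (28.8%) between JQ1 and DMSO, 2 comparisons that share the DMSO libraries with each other. The genes called higher had a median log2 difference of 0.41 and those called lower a median of -0.34, against 0.01 over all genes tested. A change of 2-fold or more was reached by 21 of the higher genes and by none of the 133 lower ones. The count depended on what entered the fit: with only the 6 libraries of the comparison, 510 genes were higher and 526 lower, and without TRAP1 4 h replicate 1 and MS78 2 h replicate 1, 385 were higher and 308 lower. Leaving out 1 of the 6 libraries gave between 124 and 282 calls in place of 298, with the lowest count without JQ1 replicate 1.

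**Figure D1:**
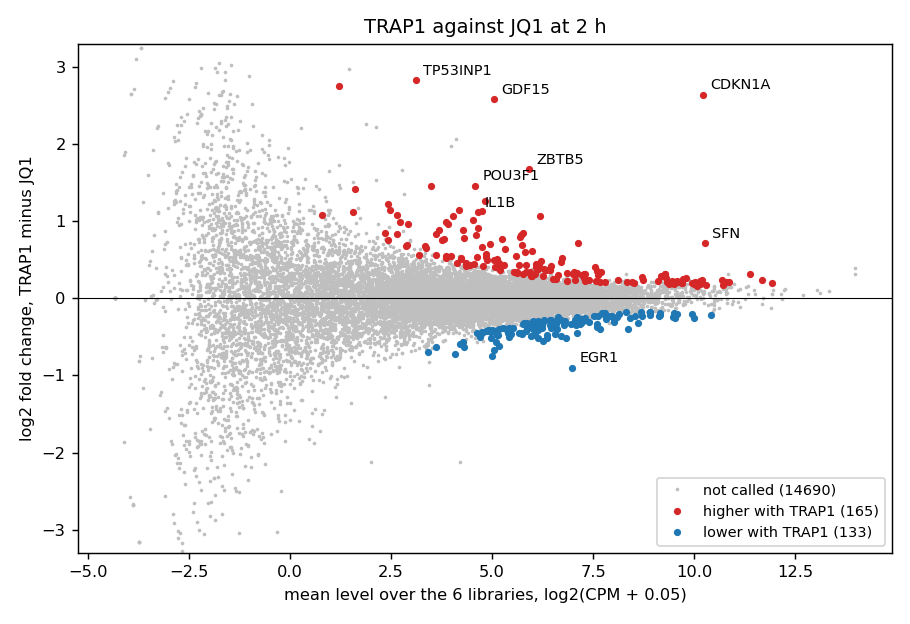
Log2 fold change of TRAP1 minus JQ1 at 2 h for each gene tested, against its mean level over the 6 libraries as log2(CPM + 0.05). Red points are the 165 genes called higher and blue points the 133 called lower; the scatter widens at low levels, CDKN1A combines a high level with a large difference, and 94 genes beyond 3.3 on either side are not drawn.

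These 2 promoters are shown because they belong to genes at opposite ends of the comparison, and each holds a match to a sequence that was searched for. The p53 site searched for consists of 20 bases, 2 parts of 10 that each keep the C and the G of the core, with at most 3 mismatches to the consensus. A CArG box, the site of serum response factor, is CC, 6 bases of A or T, and GG. Both were searched for on both strands in the 300 bases from 250 before to 50 after the start of each gene. Sequences are from RefSeq (GRCh38.p14), printed 5′ to 3′ on the strand of the gene, with capitals marking the p53 site in GDF15, chr19:18385908-18386207, plus strand, and the 2 CArG boxes in EGR1, chr5:138465229-138465528, plus strand.
GDF15: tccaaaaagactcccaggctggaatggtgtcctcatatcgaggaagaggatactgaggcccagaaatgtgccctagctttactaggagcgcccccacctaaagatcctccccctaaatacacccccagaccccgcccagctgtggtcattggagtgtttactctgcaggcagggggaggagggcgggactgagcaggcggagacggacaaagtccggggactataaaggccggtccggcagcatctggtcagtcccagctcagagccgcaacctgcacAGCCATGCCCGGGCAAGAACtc
EGR1: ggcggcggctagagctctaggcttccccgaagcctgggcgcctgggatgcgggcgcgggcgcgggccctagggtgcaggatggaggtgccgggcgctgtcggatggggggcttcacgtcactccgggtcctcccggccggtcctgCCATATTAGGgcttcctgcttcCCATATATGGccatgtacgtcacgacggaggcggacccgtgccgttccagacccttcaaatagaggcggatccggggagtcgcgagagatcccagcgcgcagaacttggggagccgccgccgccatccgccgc

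The p53 site lay in 4 of the 129 promoters found for the genes called higher (3.1%), in 1 of the 105 found for the genes called lower (0.952%) and in 1.09% of the 11434 promoters found for all genes tested. Besides GDF15, the matches among higher genes were in GPX1, RPL36A and ZNF319. CArG boxes lay in 3 promoters of higher genes (2.33%), in 2 of lower genes (1.9%), EGR1 and FAM53C, and in 1.08% of those tested. The cAMP-response sequence TGACGTCA was found in 5.43% of higher, 1.9% of lower and 3.2% of all promoters tested, and the AP-1 sequence TGANTCA in 7.75%, 4.76% and 4.92%. Among all 27305 RefSeq promoters of this length the shares were 1.05% for the p53 site, 1.29% for the CArG box, 1.98% for TGACGTCA and 7.76% for TGANTCA. These are matches of letters in a short window, and many p53 sites, those of CDKN1A among them, lie outside such a window.

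CDKN1A encodes p21, the inhibitor of cyclin-dependent kinases through which p53 stops the cell cycle, and lies at chr6:36676463-36687332 (GRCh38.p14). It stood at 2022, 2080.1 and 2036 CPM (counts scaled to library size) in the 3 TRAP1 libraries and at 326, 324 and 332 CPM in the 3 JQ1 libraries. DMSO libraries gave 163, 169 and 153 CPM and TRAP-1-NegP libraries 285, 298 and 296 CPM. Every TRAP1 library was several times above every other 2 h library shown, JQ1 and TRAP-1-NegP lay between TRAP1 and DMSO, and no groups overlapped. The difference between TRAP1 and JQ1 was 6.25-fold, or a log2 change of 2.64 ± 0.05 (SE, adjusted p = 5.8e-43). JQ1 itself raised CDKN1A over DMSO by 1.02 on the log2 scale and TRAP1 by 3.66.

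TP53INP1, a stress protein that p53 induces and that promotes autophagy and death, was low in the vehicle. Its levels with TRAP1 were 16.1, 15.6 and 13.4 CPM and with JQ1 2.04, 2.24 and 2.03 CPM. The DMSO libraries held 1.13, 2.44 and 2.80 CPM and those of TRAP-1-NegP 1.91, 1.35 and 1.70 CPM. The 3 TRAP1 libraries were far above the others. DMSO overlapped both JQ1 and TRAP-1-NegP, and the JQ1 libraries lay just above those of TRAP-1-NegP. TRAP1 exceeded JQ1 by 2.83 ± 0.31 (SE, adjusted p = 1.9e-08) on the log2 scale, and the difference of JQ1 from DMSO was -0.01 with a 95% interval of -0.68 to 0.67.

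GDF15, a secreted stress cytokine used as a readout of p53 and of the integrated stress response, gave 56.3, 55.1 and 57.4 CPM with TRAP1. JQ1 gave 10.5, 9.89 and 7.73 CPM, DMSO 12.9, 10.6 and 13.7 CPM and TRAP-1-NegP 12.4, 13.5 and 10.8 CPM. TRAP1 libraries again stood alone, and the JQ1 libraries were lowest, just under those of DMSO. The log2 difference from JQ1 was 2.59 ± 0.16 (SE, adjusted p = 2.0e-15). A transcriptional repressor of the zinc finger and BTB class, ZBTB5, followed with 83.3, 100.4 and 93.5 CPM under TRAP1 and 27, 32.7 and 26.8 under JQ1, a log2 difference of 1.68 ± 0.10 (SE, adjusted p = 6.7e-20). Against DMSO, JQ1 lowered ZBTB5 with a log2 change of -0.33, adjusted p = 0.00524.

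**Figure D2:**
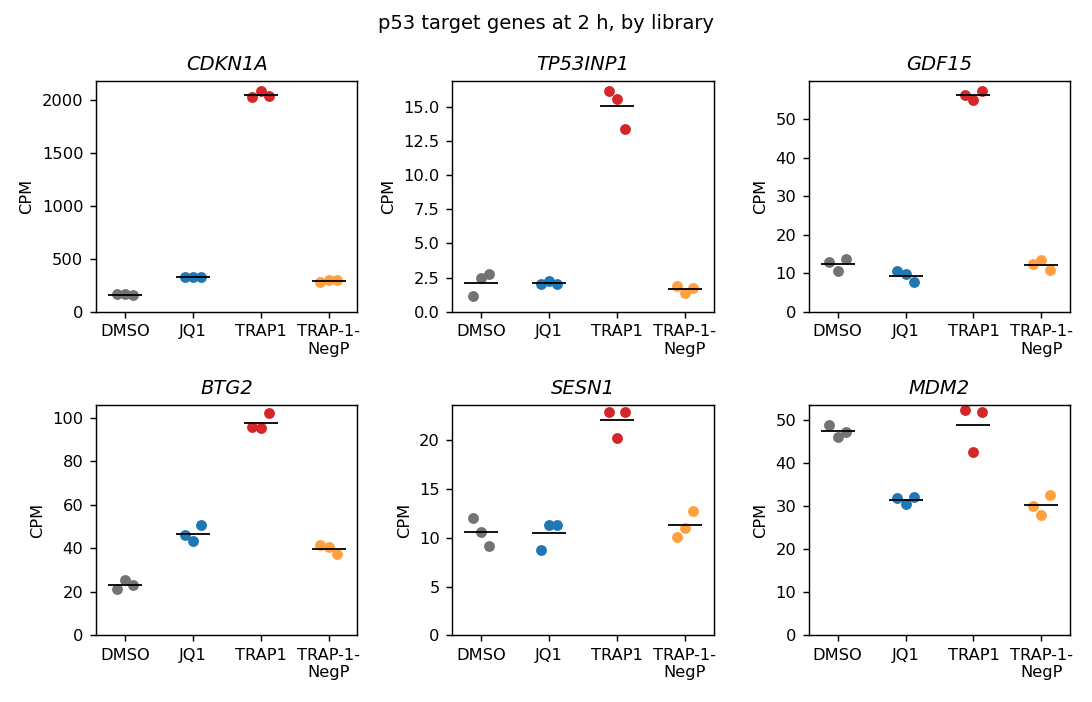
CPM of 6 p53 target genes in each 2 h library of DMSO, JQ1, TRAP1 and TRAP-1-NegP; points are libraries and horizontal bars the means of 3. CDKN1A, TP53INP1, GDF15, BTG2 and SESN1 stood higher in all 3 TRAP1 libraries than in any other library drawn, while MDM2 with TRAP1 overlapped its level with DMSO and stood above JQ1.

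Among the 18 arrest and feedback targets of p53 tested, 8 were higher and 1 was lower with TRAP1 than with JQ1 (1.10% and 0.887% of all genes). Their median log2 difference was 0.29 against 0.01 over all genes. BTG2, an antiproliferative protein of the BTG/TOB family, was at 95.8, 95.2 and 102 CPM with TRAP1 and 45.9, 43.3 and 50.8 CPM with JQ1. That is a log2 difference of 1.07 ± 0.10 (SE, adjusted p = 2.3e-11), on top of a rise of 1.00 from DMSO to JQ1. The sestrin SESN1, which restrains mTORC1, was at 22.9, 20.2 and 22.9 CPM with TRAP1 and 8.75, 11.3 and 11.3 CPM with JQ1, a log2 difference of 1.07 ± 0.17 (SE, adjusted p = 1.8e-05), and JQ1 did not shift it from DMSO detectably (-0.02, 95% interval -0.35 to 0.32). SFN, the 14-3-3 sigma protein that holds cells in G2, had 1549, 1542 and 1475 CPM with TRAP1 and 919, 884 and 979 CPM with JQ1, a log2 difference of 0.72 ± 0.09 (SE, adjusted p = 5.3e-06). GADD45A was higher by 0.42 (adjusted p = 0.0142), a call lost without JQ1 replicate 1 or without TRAP1 replicate 2 (adjusted p = 0.12 at most). PPM1D, the phosphatase WIP1 that switches p53 signalling off, was higher by 0.84 (adjusted p = 0.00688), and was named after its values were seen.

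MDM2, the ubiquitin ligase that degrades p53 and is itself a p53 target, differed from these in its level against the vehicle. It stood at 52.2, 42.5 and 51.9 CPM with TRAP1, 31.7, 30.5 and 32.1 CPM with JQ1 and 48.7, 46.1 and 47.2 CPM with DMSO. All TRAP1 libraries were above all JQ1 libraries (log2 difference 0.64 ± 0.12 SE, adjusted p = 4.2e-04), but TRAP1 overlapped DMSO, with a difference of 0.05 and a 95% interval of -0.18 to 0.28. JQ1 was below DMSO by a log2 change of -0.59, adjusted p = 6.6e-05. The member of the list that was lower with TRAP1 was GADD45B, a stress gene that many signals other than p53 induce, at 45.7, 44.3 and 44.8 CPM against 65.7, 53.6 and 66.2 CPM with JQ1 and 18.5, 16.3 and 13.7 CPM with DMSO (log2 difference -0.46 ± 0.11 SE, adjusted p = 0.015). Its call was lost in 5 of the 6 fits that left out 1 library, with an adjusted p of at most 0.129.

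Of 18 apoptosis and death receptor targets, 2 were higher and none lower (1.10% and 0.887% of all genes), with a median log2 difference of 0.19. TP53I3, a quinone oxidoreductase linked to oxidative stress, was at 36.1, 28.6 and 33 CPM with TRAP1 and 17.8, 16.7 and 17.2 CPM with JQ1 (log2 difference 0.92 ± 0.13 SE, adjusted p = 1.4e-06). PHLDA3, which blocks AKT at the membrane, was at 63.4, 66.4 and 66.6 CPM with TRAP1, 44.9, 39.3 and 37.4 CPM with JQ1 and 70.7, 78.3 and 82.2 CPM with DMSO (log2 difference 0.69 ± 0.11 SE, adjusted p = 2.0e-05). As for MDM2, PHLDA3 was below the vehicle with JQ1 (-0.93, adjusted p = 6.7e-10), and the difference of TRAP1 from the vehicle was -0.24 with a 95% interval of -0.44 to -0.03 (adjusted p = 0.0799). BBC3, which encodes the BH3-only killer PUMA, had 6.86, 6.63 and 7.82 CPM with TRAP1 and 2.46, 5.15 and 3.52 CPM with JQ1. These libraries did not overlap, yet the difference of 0.93 (95% interval 0.30 to 1.56) missed the threshold (adjusted p = 0.122), and passed it only when the fit held the 6 libraries of the comparison alone (adjusted p = 0.00857). For the death receptor gene FAS the difference was 0.27 with an interval of -0.13 to 0.66 and overlapping libraries.

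DNA repair targets numbered 9, of which 2 were higher and none lower (1.10% and 0.887% of all genes), with a median of 0.24. POLH, the translesion polymerase eta, rose from 17, 17 and 15.9 CPM with JQ1 to 47.9, 36.5 and 35.7 CPM with TRAP1 (log2 difference 1.27 ± 0.14 SE, adjusted p = 8.2e-09), both above the 7.89, 11.1 and 10.4 CPM of DMSO. PCNA, the sliding clamp of replication and repair, was higher by a log2 difference of 0.30 ± 0.05 (SE, adjusted p = 6.9e-05) at 632 ± 15.8 CPM (SD, n = 3) against 515 ± 8.17. In the remaining list of 46 metabolic, autophagy and other p53 targets, 6 were higher and none lower, and the median of 0.06 was close to that of all genes. The 6 include GDF15, LIF and KRT17, which also stand in other lists. FBXW7, the substrate receptor of a ubiquitin ligase for MYC and cyclin E, was at 21.8, 17 and 20.2 CPM against 11.1, 8.98 and 10.3 (log2 difference 0.96 ± 0.15 SE, adjusted p = 3.0e-05). RAP2B, a small GTPase, was at 97.5 ± 8.56 against 75.6 ± 2.66 CPM, a difference of 0.37 (adjusted p = 0.00116), and PRKAB1, a subunit of AMP kinase named after its values were seen, differed by 0.36 (adjusted p = 0.0345). Over all 90 p53 targets tested 18 were higher and 1 lower, with a median of 0.13, and the count of higher members stayed within 1.5 times of 18 in every alternative fit.

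Set against the vehicle, 15 of the 18 arrest and feedback targets were higher and none lower with TRAP1 (background 15.7% higher and 14.3% lower of all genes), with a median log2 change of 1.04. With JQ1, 10 were higher and 1 was lower (background 14.8% and 13.9%), with a median of 0.49. Both use the same DMSO libraries. Against JQ1, the control compound TRAP-1-NegP had 1 of these 18 higher and 3 lower (background 7.26% and 5.65%), with a median of -0.11, in a comparison that shares the JQ1 libraries with that of TRAP1.

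**Figure D3:**
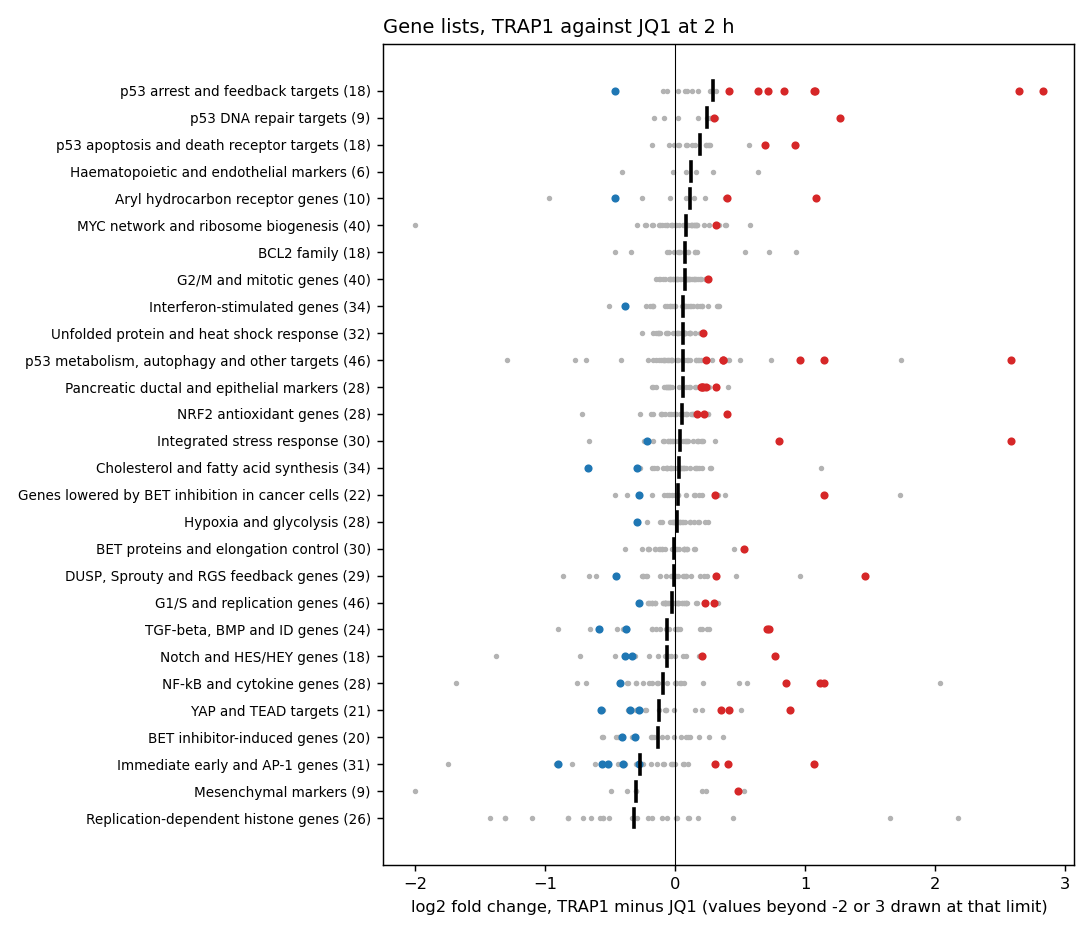
Log2 fold change of TRAP1 minus JQ1 at 2 h for each tested member of the gene lists with at least 5 tested members, with the number tested in parentheses. Grey points were not called, red were called higher, blue called lower, and the black bar is the median of the list; the 3 p53 lists on arrest, repair and apoptosis have the highest medians, and the early-response list is among the 3 lowest.

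Genes known to respond to BET inhibition were called between TRAP1 and JQ1 in 2 of 20 cases for those induced and 3 of 22 for those lowered, against 1.99% of all genes tested. Of the 20 genes that BET inhibitors induce, 16 were higher than DMSO with TRAP1 and 15 with JQ1, and none was lower with either. Over all genes tested, 15.7% were higher and 14.3% lower than DMSO with TRAP1, and 14.8% and 13.9% with JQ1. Between the 2 compounds, none of the 20 was higher and 2 were lower with TRAP1, with a median of -0.13. HEXIM1, whose protein holds the elongation factor P-TEFb inactive and which is the usual marker of BET inhibition, stood at 142, 136 and 142 CPM with TRAP1 and 136, 121 and 140.1 CPM with JQ1, over 53.3, 67.9 and 58.3 CPM with DMSO. TRAP1 and JQ1 overlapped, with a log2 difference of 0.08 and a 95% interval of -0.08 to 0.24. BRD2 was at 436, 464 and 447 CPM with TRAP1, 456, 453 and 443 with JQ1 and 211, 211 and 213 with DMSO, and its difference between the compounds was -0.01 with an interval of -0.10 to 0.09. SERPINI1, a neuronal serpin induced by BET inhibitors in many lines, had a difference of 0.04 (interval -0.54 to 0.63).

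The 2 members that were lower with TRAP1 were TXNIP, the thioredoxin-binding regulator of glucose uptake, and SLC25A25, a mitochondrial carrier of ATP and phosphate. TXNIP had 215, 233 and 249 CPM with TRAP1, 285, 290.2 and 289.5 with JQ1 and 119.7, 116 and 123 with DMSO (log2 difference -0.31 ± 0.06 SE, adjusted p = 3.8e-04), so both compounds raised it. SLC25A25 differed by -0.41 (adjusted p = 0.0278), a call lost in 5 of the 6 fits that left out 1 library, with an adjusted p of at most 0.191. In the list of 30 BET proteins and elongation factors 1 was higher, LARP7, which stabilises the 7SK RNA, at 33.9, 33.6 and 35 CPM against 22.4, 25.6 and 22.8 with JQ1 and 33.8, 37.2 and 35.6 with TRAP-1-NegP. Its log2 difference from JQ1 was 0.53 ± 0.13 (SE, adjusted p = 0.015). The call was lost without JQ1 replicate 1 or 3 and without TRAP1 replicate 1 or 3, with an adjusted p of at most 0.114. The median of this list was -0.01. BRD3 differed by -0.20 (interval -0.44 to 0.04).

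Of the 22 tested genes known to fall under BET inhibition in cancer cells, 2 were higher and 1 was lower with TRAP1, with a median of 0.02. MYC, the growth regulator often lowered by JQ1, was at 59.9, 61.1 and 55 CPM with TRAP1, 54.9, 50.1 and 54.2 CPM with JQ1 and 92.6, 91 and 83.8 CPM with DMSO. The libraries of TRAP1 lay slightly above those of JQ1, but the difference of 0.15 (interval -0.01 to 0.30) was not called. HAS2, a hyaluronan synthase, fell to 4.01 ± 1.24 CPM with TRAP1 and 3.63 ± 0.367 CPM with JQ1 (SD, n = 3) from 53 ± 1.44 in DMSO, and the compounds overlapped (0.15, interval -0.46 to 0.76). FOSL1, an AP-1 subunit, was higher by 0.31 (adjusted p = 0.00148) and the transcription factor ETS1 lower (log2 difference -0.28, adjusted p = 0.0118, and 0.0975 at most without 1 library). Of 40 genes of the MYC network and ribosome biogenesis 1 was higher, NOP58, a core protein of box C/D small nucleolar complexes (0.31, adjusted p = 0.00294, and 0.0546 without TRAP1 replicate 3), and none was lower, with a median of 0.09.

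Of 28 NF-kB and cytokine genes tested, 3 were higher with TRAP1 than with JQ1, IL1A, IL1B and LIF, and 1 was lower (1.10% and 0.887% of all genes). The list median was -0.10. IL1B, the inflammatory cytokine interleukin-1 beta, was at 46.2, 47.9 and 47.9 CPM with DMSO. It stood at 13.6, 16.5 and 17 CPM with JQ1, 36.8, 31.9 and 33.7 CPM with TRAP1 and 24.5, 26.6 and 19.5 CPM with TRAP-1-NegP. The order was the same in every library, DMSO over TRAP1 over JQ1, and TRAP1 exceeded JQ1 by a log2 difference of 1.12 ± 0.11 (SE, adjusted p = 4.1e-11). Its partner IL1A was at 70.4, 67.1 and 71.4 CPM with TRAP1 and 39.8, 34.6 and 41.7 with JQ1 (log2 difference 0.85 ± 0.10 SE, adjusted p = 1.0e-08), with TRAP1 close to the 74.2 CPM mean of DMSO.

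LIF, a cytokine of the interleukin-6 family, stood at 8.89, 6.97 and 6.92 CPM with TRAP1, 3.46, 1.83 and 5.15 with JQ1 and 12.3, 10.4 and 12.1 with DMSO (log2 difference 1.14 ± 0.23 SE, adjusted p = 0.0018), and its call was lost without JQ1 replicate 2 (adjusted p = 0.0822). Set against the same JQ1 libraries, TRAP-1-NegP also stood higher for IL1B (0.58, adjusted p = 1.8e-04) and IL1A (0.38, adjusted p = 0.00654), whereas for CDKN1A its difference from JQ1 was -0.16 (adjusted p = 0.0207), in the direction opposite to that of TRAP1. For LIF the difference of TRAP-1-NegP from JQ1 was 0.57 with an interval of 0.08 to 1.05. The lower member was TNFAIP3, the ubiquitin-editing inhibitor of NF-kB (-0.42, adjusted p = 0.0195, lost in 5 of the 6 fits without 1 library, at most 0.144).

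**Figure D4:**
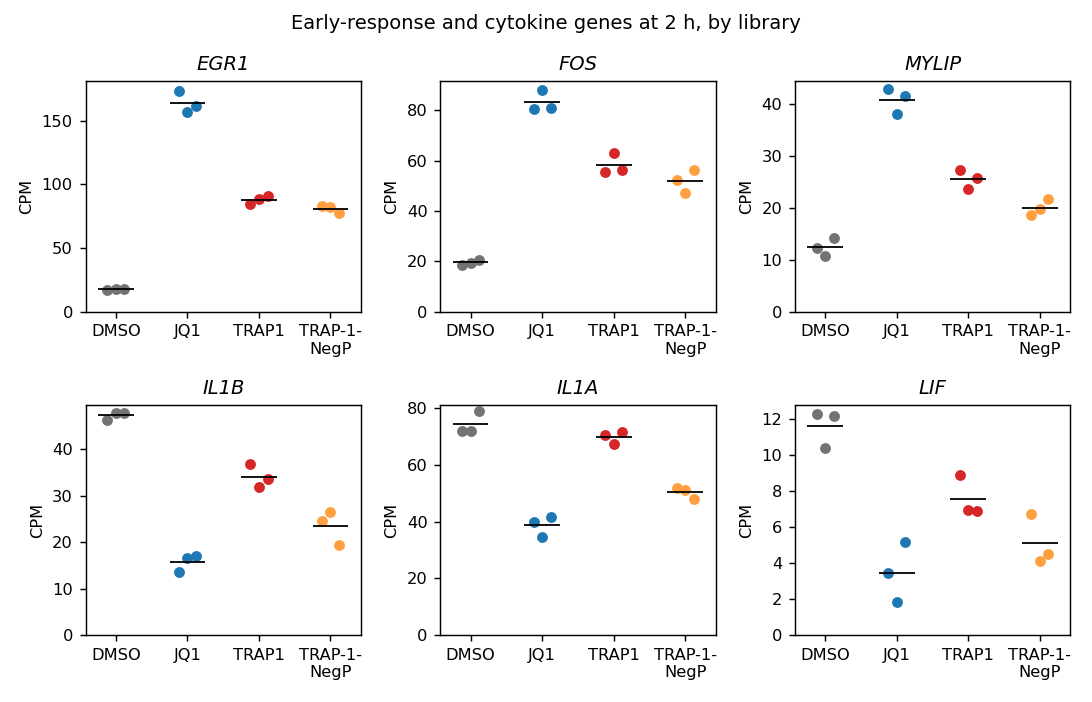
CPM of 6 genes in each 2 h library of DMSO, JQ1, TRAP1 and TRAP-1-NegP; points are libraries and horizontal bars the means of 3. EGR1, FOS and MYLIP stood above DMSO in every treated library and highest with JQ1, while IL1B, IL1A and LIF had their highest mean with DMSO and their lowest with JQ1.

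The genes called lower with TRAP1 were headed by EGR1, an immediate early zinc finger factor of the serum response, whose promoter holds the 2 CArG boxes shown. DMSO libraries held 16.7, 18 and 18.2 CPM. JQ1 raised EGR1 to 173, 157 and 161 CPM, TRAP1 to 84.2, 88.4 and 90.8 CPM and TRAP-1-NegP to 82.9, 81.8 and 77.7 CPM. Each group was separate from DMSO and JQ1 from the rest, and the difference between TRAP1 and JQ1 was -0.90 ± 0.10 (SE, adjusted p = 8.6e-09) on the log2 scale. FOS, the AP-1 partner of JUN, stood at 55.5, 62.9 and 56.4 CPM with TRAP1 against 80.5, 88.1 and 80.8 with JQ1 and 18.6, 19.5 and 20.6 with DMSO (log2 difference -0.51 ± 0.10 SE, adjusted p = 5.7e-04). JUN followed with 176, 176 and 174 against 241, 207 and 249 CPM and 92.5, 77.4 and 86.6 in DMSO (log2 difference -0.40 ± 0.07 SE, adjusted p = 4.2e-04).

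KLF10, a zinc finger gene induced by TGF-beta, was lower (log2 difference -0.56 ± 0.09 SE, adjusted p = 8.1e-05), at 59.6, 66.5 and 59.2 CPM with TRAP1, below JQ1 at 91.9, 88.3 and 92.5 and near DMSO at 73.2, 67.7 and 75.3. CYR61, the secreted matricellular protein CCN1, was lower by a log2 difference of -0.28 (adjusted p = 0.0118, and 0.164 without JQ1 replicate 2). In all, 31 immediate early and AP-1 genes were tested, of which 5 were lower and 3 higher with TRAP1 (0.887% and 1.10% of all genes), with a median of -0.27. Higher were BTG2 and FOSL1, given above, and IER3, an early stress gene that p53 and NF-kB regulate, at 215, 216 and 213 CPM against 155, 157 and 172 (log2 difference 0.41 ± 0.06 SE, adjusted p = 1.3e-05). Against DMSO, 20 of the 31 were higher and 3 lower with TRAP1 (15.7% and 14.3% of all genes). With JQ1, 21 were higher and 3 lower (14.8% and 13.9%).

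Feedback genes of growth factor signalling were split. Of 29 DUSP, Sprouty and RGS genes 2 were higher and 1 lower (1.10% and 0.887% of all genes), with a median of -0.01. RGS16, which shortens G-protein signals and is a reported p53 target, was at 16.7, 18.1 and 14 CPM with TRAP1 and 4.71, 7.35 and 5.65 CPM with JQ1 (log2 difference 1.46 ± 0.25 SE, adjusted p = 1.1e-04). DUSP7, a phosphatase of ERK, was higher by 0.31 (adjusted p = 0.00105). ERRFI1, the cytoplasmic inhibitor of the EGF receptor kinase, was lower, at 119.7, 118 and 112 against 157, 166 and 155 CPM (log2 difference -0.45 ± 0.07 SE, adjusted p = 3.1e-05). EGFR itself was at 62.5, 69.7 and 70.6 CPM with TRAP1, 93.1, 101 and 95.8 CPM with JQ1 and 139, 131 and 138 CPM with DMSO, so that it was below the vehicle with both compounds and lower still with TRAP1 (log2 difference -0.51 ± 0.08 SE, adjusted p = 3.4e-05). SOCS3, a cytokine-induced inhibitor of JAK, differed by -0.56 (adjusted p = 0.0109, lost without JQ1 replicate 1 or TRAP1 replicate 3, at most 0.145), and PIM3, a serine/threonine survival kinase, by -0.52 ± 0.08 (SE, adjusted p = 1.2e-05).

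The other leading genes fell outside these lists. POU3F1, a POU transcription factor of neural and epidermal cells, was at 32.7, 34.8 and 38 CPM with TRAP1, 14.2, 12 and 12.1 with JQ1 and 5.95, 5.59 and 5.09 with DMSO (log2 difference 1.46 ± 0.16 SE, adjusted p = 6.2e-09). ZNF488, a zinc finger repressor, was higher by 1.15 ± 0.16 (SE, adjusted p = 1.0e-06). RRAD, a small GTPase that p53 induces, was higher by 1.08 (adjusted p = 0.0323), a call lost in each of the 6 fits without 1 library (adjusted p at most 0.178). PLD4, a lysosomal exonuclease, was higher by 1.23 (adjusted p = 0.0278, at most 0.195 without 1 library), with TRAP-1-NegP above JQ1 by 1.34. Of the 165 higher genes, 160 had a mean of at least 5 CPM and libraries that did not overlap, as had all 133 lower genes. Of all genes tested, 22.7% had groups that did not overlap. The calls come from the same 6 libraries, so the lack of overlap in called genes is largely built in.

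MYLIP, a ubiquitin ligase that degrades the LDL receptor, was lower at 27.3, 23.5 and 25.7 CPM with TRAP1 against 42.7, 37.9 and 41.4 with JQ1 and 12.2, 10.7 and 14.3 with DMSO (log2 difference -0.67 ± 0.14 SE, adjusted p = 0.0031). PPTC7, a mitochondrial phosphatase, was at 14.4, 10.7 and 12.7 against 21.7, 18.7 and 22.2 CPM (log2 difference -0.72 ± 0.15 SE, adjusted p = 0.00317, and adjusted p = 0.0569 without TRAP1 replicate 2). CRYBG3, a crystallin-domain protein, was at 26.4, 26.9 and 31.1 against 43, 49 and 37.6 CPM (log2 difference -0.62 ± 0.12 SE, adjusted p = 4.6e-04). The sorting nexin SNX29 (-0.75), the transcription factor KLF7 (-0.69), the heparan sulfate enzyme NDST2 (-0.63), the Wnt receptor FZD1 (-0.63), the growth factor BMP2 (-0.59) and the RhoA inhibitor DLC1 (-0.57) completed the 15 lowest, and the call of each of these 6 was lost in at least 3 of the fits that left out 1 library.

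Stress lists had a few members called, where 1.10% of all genes tested were higher and 0.887% lower. Of 30 integrated stress response genes 2 were higher, GDF15 and DDIT4, and 1 was lower, the amino acid transporter gene SLC7A5 (-0.22, adjusted p = 0.0147, and at most 0.13 without 1 library), with a median of 0.04. DDIT4, the mTORC1 inhibitor REDD1 that p53 and ATF4 both induce, stood at 69.9, 64 and 63.1 CPM with TRAP1 and 38.1, 38.2 and 37.2 CPM with JQ1 (log2 difference 0.80 ± 0.09 SE, adjusted p = 6.2e-09), and the difference of JQ1 from DMSO was -0.03 with an interval of -0.21 to 0.15. Among 32 unfolded protein and heat shock genes 1 was higher, the co-chaperone gene DNAJA1 (0.21, adjusted p = 0.0164, and at most 0.118 without 1 library), and none lower, with a median of 0.06. The 28 NRF2 antioxidant genes had 3 higher and none lower, with a median of 0.05: NFE2L2, which encodes NRF2 itself (log2 difference 0.40 ± 0.08 SE, adjusted p = 0.00242), thioredoxin TXN (0.22, adjusted p = 0.0094) and ferritin heavy chain FTH1 (0.17, adjusted p = 0.0314). After a correction for GC content and transcript length, chosen after the data were seen, TXN and FTH1 were not called (adjusted p = 0.446 and 0.314), nor were they without JQ1 replicate 1 (adjusted p = 0.251 and 0.179).

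TGF-beta, BMP and ID genes (24 tested) had 2 higher and 2 lower, with a median of -0.07. Of all genes tested, 1.10% were higher and 0.887% lower. ID3, an inhibitor of helix-loop-helix factors, was at 39.3, 37 and 38.5 CPM with TRAP1 against 22.7, 22.2 and 25.6 CPM with JQ1 (log2 difference 0.70 ± 0.14 SE, adjusted p = 0.00124), and the corepressor SKI was lower at 168 ± 3.20 against 218 ± 12.5 CPM (-0.38, adjusted p = 9.1e-05). YAP and TEAD targets (21 tested) had 3 higher, the kinase gene NUAK2 (log2 difference 0.89 ± 0.14 SE, adjusted p = 1.7e-05), the LIM protein gene AJUBA (log2 difference 0.35 ± 0.06 SE, adjusted p = 5.1e-05) and GADD45A, and 3 lower, CYR61, DLC1 and AMOTL2 (-0.34, adjusted p = 0.00934), with a median of -0.13. Notch genes (18 tested) had 2 higher, the repressor gene HES2 (log2 difference 0.76 ± 0.10 SE, adjusted p = 6.6e-07) and the ligand gene JAG1 (0.21, adjusted p = 0.00774), and 2 lower, the receptor gene NOTCH2 (-0.39, adjusted p = 0.00395) and the feedback gene NRARP (-0.33, adjusted p = 0.022), with a median of -0.07. The calls of AMOTL2, JAG1, NOTCH2 and NRARP were each lost in at least 1 fit without 1 library, with adjusted p of at most 0.149, 0.0546, 0.0675 and 0.114.

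Aryl hydrocarbon receptor genes (10 tested) had 2 higher, NFE2L2 and CYP1A1, and 1 lower, TIPARP (1.10% and 0.887% of all genes), with a median of 0.12. TIPARP, a mono-ADP-ribosyltransferase, was at 78.6 ± 2.02 against 108 ± 8.36 CPM (-0.46, adjusted p = 2.7e-04). CYP1A1 rested on few counts, 2.67, 2.19 and 1.94 against 0.786, 1.16 and 1.24 CPM (adjusted p = 0.0449), and its call was lost in every fit without 1 library. CYP1B1 differed by 0.38 (interval 0.02 to 0.74) and was not called (adjusted p = 0.368). Cholesterol and fatty acid genes (34 tested) had none higher and 2 lower, MYLIP and ACLY, which makes cytosolic acetyl-CoA (log2 difference -0.29 ± 0.06 SE, adjusted p = 0.00369), with a median of 0.03. INSIG1, the sterol-sensing retention protein, was raised over DMSO by both compounds and differed between them by -0.06 (interval -0.20 to 0.09).

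Cell cycle lists were close to even at 2 h, where 1.10% of all genes tested were higher and 0.887% lower. Of 46 G1/S and replication genes 2 were higher, PCNA and thymidylate synthase TYMS (0.23, adjusted p = 0.0461), and 1 lower, CDK2 (-0.27, adjusted p = 0.0235), with a median of -0.02. Of 40 G2/M genes 1 was higher, securin PTTG1 (0.25, adjusted p = 0.0373), and none lower, with a median of 0.07. The calls of TYMS, CDK2 and PTTG1 were each lost in at least 4 fits without 1 library. Replication-dependent histone genes (26 tested), whose mRNAs mostly lack the poly(A) tail this protocol selects, had none called and a median of -0.31, and the BCL2 family (18 tested) had none called and a median of 0.07. Hypoxia and glycolysis genes (28 tested) had 1 lower, hexokinase HK2 (-0.29, adjusted p = 0.0449), and a median of 0.01, and interferon-stimulated genes (34 tested) had 1 lower, OAS3 (-0.39, adjusted p = 0.0439), and a median of 0.06, with both calls lost in at least 4 fits without 1 library.

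Of 7 keratins in the ductal and epithelial list, 4 were called higher with TRAP1, by small amounts, and KRT7, KRT8 and KRT6A were not called. KRT19, a marker of pancreatic duct cells, was at 2919.9, 3004 and 2927 CPM with TRAP1 and 2383, 2286 and 2454 CPM with JQ1 (log2 difference 0.31 ± 0.06 SE, adjusted p = 0.0032). TRAP-1-NegP gave 3032, 2935 and 3056 CPM. KRT17 (0.24), KRT18 (0.21) and KRT5 (0.20) were also called, with adjusted p of 0.0297, 0.015 and 0.0278, but each lost its call in 4 of the 6 fits without 1 library, with adjusted p of at most 0.19, 0.111 and 0.156. AGR2, a disulfide isomerase of secretory epithelium named after its values were seen, was also higher (0.22, adjusted p = 0.0485). With it, 5 of the 28 list members tested were higher and none lower (1.10% and 0.887% of all genes), with a median of 0.06. SNAI2, a transcription factor of the Snail family known for its part in epithelial-mesenchymal transition, was higher, at 88.6, 84.5 and 85.2 against 65.1, 61 and 58.5 CPM (log2 difference 0.49 ± 0.08 SE, adjusted p = 1.4e-04), as 1 of 9 mesenchymal markers tested, with a list median of -0.30. None of 6 haematopoietic and endothelial markers (median 0.12) was called, nor was the 1 acinar and endocrine marker tested (-0.18).

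The genes called higher and those called lower differed in length, as a description with no test. Gene lengths in RefSeq had a median of 10.2 kb for the higher genes, 62.8 kb for the lower genes and 28.4 kb for all genes tested, and the longest transcripts had medians of 2.53, 5.77 and 3.54 kb. After the correction for GC content and transcript length, which called 198 higher and 192 lower genes and kept 221 of the 298, gene lengths were 17.4 and 32.9 kb and transcript lengths 3.78 and 3.79 kb. Neither EGR1, FOS, MYLIP and IL1B nor the p53 targets CDKN1A, TP53INP1, GDF15, BTG2, SESN1, SFN, MDM2, POLH and TP53I3 lost their call under it, whereas 11 other named genes did.

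At 4 h, in libraries the 2 h comparison does not use, 1877 genes were higher (12.5%) and 2236 lower (14.9%) with TRAP1 than with JQ1. Of the 165 genes higher at 2 h, 125 were again higher at 4 h (75.8% of them, and 6.66% of the 4 h list) and 5 were lower. Of the 133 lower genes, 97 were again lower (72.9%, and 4.34% of the 4 h list) and 1 was higher. The median difference of the higher set moved from 0.41 to 0.55, and that of the lower set from -0.34 to -0.30. Without TRAP1 4 h replicate 1, 127 and 87 were called in the same direction at 4 h. With the correction for GC content and transcript length, the same counts were 128 of the 165 and 69 of the 133 (51.9%), 5 of the 133 were higher, and 1361 genes were lower at 4 h in all. The signed change from 2 to 4 h was itself called upward for 3.14% and downward for 4.00% of the genes tested (7.13% in all). In the higher set it was upward for 65 of 165 and downward for 20. In the lower set it was upward for 6 of 133, EGR1 among them, and downward for 8. The change subtracts the same 2 h difference that chose both sets, so a move toward zero is partly built in.

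CDKN1A reached 7556, 7718 and 8007 CPM with TRAP1 at 4 h against 730.1, 669 and 712 CPM with JQ1, a log2 difference of 3.46, larger than at 2 h by 0.82 ± 0.07 (SE, adjusted p = 3.3e-13). GDF15 reached 241, 274 and 282 CPM against 11.6, 10.8 and 12.5, a difference of 4.51, larger by 1.92 ± 0.22 (SE, adjusted p = 3.8e-08). MDM2, which overlapped the vehicle with TRAP1 at 2 h, was at 70.8, 77.7 and 75 against 23.7, 23.8 and 24.7 CPM, larger by 0.99 ± 0.17 (SE, adjusted p = 3.9e-05). EGR1 stood at 63, 59.6 and 55.7 CPM with TRAP1 and 81.3, 65.5 and 69.5 with JQ1 at 4 h, and its difference of -0.28 was nearer to zero than at 2 h by 0.62 ± 0.15 (SE, adjusted p = 0.00356). FAS, not called at 2 h, was higher at 4 h by 1.54 (adjusted p = 5.5e-08), and BBC3 by 1.81 (adjusted p = 9.3e-06). Over all 90 p53 targets, 42 were higher and 5 lower at 4 h (12.5% and 14.9% of all genes), with a median of 0.27 against -0.03 over all genes. G2/M genes, near even at 2 h, had 1 of 40 higher and 27 lower at 4 h (12.5% and 14.9% of all genes), with a median of -0.51. These list counts at 4 h were not repeated with the correction for GC content and transcript length.

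**Figure D5:**
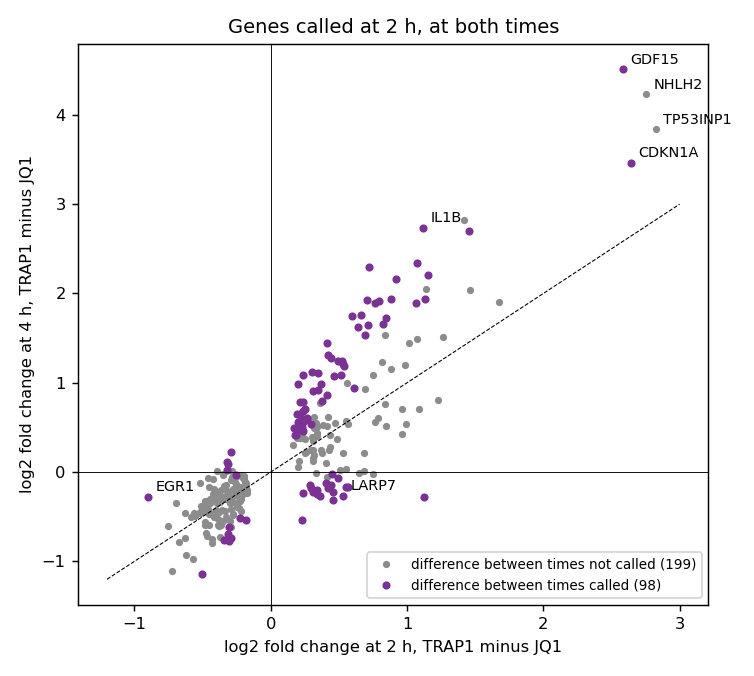
Log2 fold change of TRAP1 minus JQ1 at 2 h (horizontal) and 4 h (vertical) for 297 of the 298 genes called at 2 h; 1 gene with almost no reads in JQ1 is left out. Purple points are the 98 genes whose difference changed between the times by the test, and the dashed line marks equal values. Most genes higher at 2 h lie above the line while a cluster returns to near or under 0. The genes were chosen by their 2 h difference, so some return toward 0 is built in.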

How the data were processed

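RNA of 36 BxPC-3 libraries was measured by paired-end sequencing of polyadenylated RNA with 150-base reads. The authors quantified genes against hg38 with Salmon 1.10.3 through nf-core/rnaseq 3.18.0, per the submitters' processing notes and the labels, with no annotation release stated there. The deposited estimated counts, not normalized for depth, were rounded to whole numbers. The deposited TPM values, scaled by the authors for length and depth, were used for marker levels only. The deposited length-scaled estimated counts served as an alternative. No per-sample column was left unmapped (0).

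Genes were kept by filterByExpr (minimum count 10), scaled by TMM and fitted in edgeR 4.0.16 (R 4.3.3) with 1 mean per compound and time over all 36 libraries. Contrasts were tested by the robust quasi-likelihood test with Benjamini-Hochberg adjustment over 14988 genes and called under 0.05. The common biological coefficient of variation was 0.135. CPM are TMM scaled, SE were taken as the log2 difference over the square root of its F statistic, 95% intervals follow from them, and fold changes are shrunk slightly by edgeR's prior count. DESeq2 1.42.0 was an alternative. The code was tested on simulated data. GC content and transcript lengths came from GENCODE v29, and gene lengths, positions and promoters from RefSeq (GRCh38.p14).

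Named genes were the 15 highest and 15 lowest called genes with a mean of at least 5 CPM and groups that did not overlap, a panel of 20, and up to 4 members per direction of 29 lists; some genes it chose are not reported here, though counts include them. Comparison, lists and rule were chosen with earlier results of these data known. Figures used matplotlib 3.10.9.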

Additional observations from a re-analysis of the deposited data

Results flagged for a closer look

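For 31 of the genes named, the difference between TRAP1 and JQ1 changed from 2 to 4 h by a test of that change in the same edgeR fit, at an adjusted p under 0.05; such changes were called for 7.13% of all 14988 genes. Values are the log2 difference at 4 h minus that at 2 h. Among p53 targets the change was 1.92 for GDF15, 1.27 for FAS, 1.27 for RRAD, 1.24 for TP53I3, 0.99 for MDM2, 0.93 for SFN, 0.84 for PHLDA3, 0.83 for BTG2, 0.82 for CDKN1A and 0.24 for PCNA. FAS went from 0.27 to 1.54, so its difference was called at 4 h and not at 2 h.

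Cytokine and signalling genes also moved further apart, by 1.62 for IL1B, 0.87 for IL1A, 1.24 for RGS16, 1.22 for ID3, 1.13 for HES2, 1.06 for NUAK2, 0.76 for AJUBA, 1.06 for ZNF488 and 0.45 for IER3. Metabolic and stress genes changed by 1.18 for INSIG1, which went from -0.06 to 1.12, by 1.11 for DDIT4, by 0.32 for FTH1 and by 0.30 for TXN. Keratins changed by 0.79 for KRT5, 0.59 for KRT19, 0.55 for KRT17 and 0.36 for KRT18.

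EGR1 moved by 0.62 from -0.90 toward zero, to -0.28, and TXNIP by 0.40 from -0.31 to 0.09. Higher at 2 h and on the other side of zero at 4 h were NOP58, with a change of -0.54 to -0.23, and LARP7, with a change of -0.80 to -0.26. The difference at 4 h was itself called for NOP58 (adjusted p = 0.00784) and not for LARP7 (adjusted p = 0.15). The calls of change in this section use TRAP1 4 h replicate 1, which agreed least with its group among the 4 h libraries. Many of the genes were named by their 2 h difference, so a move toward zero is partly built in.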

How the results depend on the processing

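Of 81 genes chosen by the naming rule and called between TRAP1 and JQ1 at 2 h, 45 kept their call in every alternative fit, 36 lost it in at least 1 and none changed direction; all 36 lost it when 1 library was left out, which leaves fewer samples, and 11 of them with the GC and length correction, which was added after the data were seen. Genes higher with TRAP1 numbered 165 and became 250 with no count filter, 385 without TRAP1 4 h replicate 1 and MS78 2 h replicate 1, 510 with only the groups compared in the fit and 286 with DESeq2. Genes lower numbered 133 and became 308 without those 2 libraries, 526 with only the groups compared and 269 with DESeq2. Leaving out each of the 6 libraries in turn gave 78 to 151 higher and 46 to 131 lower; without JQ1 replicate 1, TRAP1 replicate 1, JQ1 replicate 2, TRAP1 replicate 3 and TRAP1 replicate 2 the total fell from 298 to 124, 146, 152, 168 and 187. DESeq2 size factors, the stricter filter and length-scaled counts gave 319, 319 and 280.

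Early-response genes lower numbered 5 and became 11 with only the groups compared and 8 with the GC and length correction. Over all p53 targets, the number lower was 1 and became 2 without the 2 libraries, with only the groups compared, with DESeq2 and with the GC and length correction. As 1 library was left out it ranged from 0 to 1, there and in the arrest list. Genes whose signed difference moved upward from 2 to 4 h numbered 470 and became 934 without the 2 libraries, 917 with only the groups compared, 828 with DESeq2 and 870 with the correction (277 to 556 as 1 library was left out, lowest without JQ1 2 h replicate 3 and then TRAP1 2 h replicate 3). Those moving downward numbered 599 and became 948 without the 2 libraries and 344 with the correction. Genes lower at 4 h numbered 2236 and became 1361 with the correction. For TRAP-1-NegP against JQ1, 1088 higher genes became 619 with the correction and 583 to 991 without 1 library, and 847 lower became 1316 without the 2 libraries, 1695 with only the groups compared and 534 to 732 without 1 library, with JQ1 replicates 1 and 2 and TRAP-1-NegP replicates 1 and 3 each moving a count by over 1.5 times. The causes of these shifts were not tested.

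Replicate numbers were not treated as pairs. Same-numbered TRAP1 and JQ1 libraries deviated together with correlations of 0.03, 0.05 and 0.04. Each correlated best with its own number, as differently numbered libraries had correlations of -0.03 to -0.01. Whether the numbers mark a weak pairing was not tested. With the replicate block 272 genes were called, 151 higher and 121 lower, 270 of them among the 298. On simulated counts for this comparison (14753 genes), 70% of 1.5-fold changes and 92% of 2-fold changes were recovered, with 7 calls outside the changed genes. The changed genes were drawn only from genes with many counts, so recovery at low counts was not measured. Changes under 1.5-fold were not simulated, and how recovery depends on depth was not tested.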

Other observations

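Cytosolic ribosomal protein genes were looked at after their values were seen. All 77 tested were above 0 in TRAP1 against JQ1 at 2 h, with log2 differences of 0.04 to 0.32 and a median of 0.17, and 21 were called higher, against 1.10% of all genes tested, and none lower; 7642 of all 14988 genes were above 0. At 4 h, 76 of the 77 were higher (12.5% of all genes), with a median of 0.46, and in 49 the difference had grown by the test between times (upward in 3.14% of all genes). Relative to DMSO at 2 h, 42 were higher and 7 lower with TRAP1 (15.7% and 14.3% of all genes), and 19 higher and 16 lower with JQ1 (14.8% and 13.9%), with medians of 0.18 and 0.01. With the correction for GC content and transcript length the median at 2 h was 0.09, 71 of 77 were above 0 and 11 were called. Without JQ1 replicate 1 the number called was 2, and without TRAP1 replicate 1 it was 7. The control compound TRAP-1-NegP, set against the same JQ1 libraries at 2 h, also had all 77 above 0. Of these, 64 were called higher (7.26% of all genes) and none lower, with a median of 0.25.

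TRAP-1-NegP against JQ1 shares the JQ1 libraries with the comparison of TRAP1 and JQ1, so a common direction in both is partly built in. Of the 165 genes higher with TRAP1, 100 were also higher and 4 lower with TRAP-1-NegP (7.26% and 5.65% of all genes). Of the 133 lower genes, 117 were also lower and none was higher. How much of this the shared libraries account for was not tested. CDKN1A, TP53INP1, ZBTB5 and POLH were not called higher with TRAP-1-NegP, with log2 differences from JQ1 of -0.16, -0.35, -0.09 and -0.08.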
